A study of Mus musculus with 6 samples.

Results

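The sympathoadrenal catecholamine genes are 8 genes that mark sympathetic neurons and chromaffin cells: Th, Dbh, Ddc, Phox2a, Slc18a1, Chga, Chgb and Insm1. They were selected by gene symbol, and each had 1 probe set among the 24011 named genes of the array. Levels were measured in tissue cut by laser microdissection from C57Bl/6 mouse embryos at embryonic day 11.5, on Affymetrix mouse arrays. Dorsal tissue lay above the aorta, up to the notochord, and ventral tissue lay below it. Each tissue had 3 arrays, numbered as biological replicates, and both tissues were taken from the same embryos. No genotype or treatment differed between the groups. Whether an array pooled sections of several embryos is not given in the sources used here, so p-values measure the spread between these samples.

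Catecholamines are made from tyrosine in successive steps. Th makes dopa, Ddc turns dopa into dopamine, and Dbh turns dopamine into noradrenaline inside vesicles that Slc18a1 and Slc18a2 load. Chga and Chgb are granins, the acidic proteins of those dense-core granules, and Phox2a and Insm1 are transcription factors of the lineage. Neural crest cells gather beside the dorsal aorta, which secretes bone morphogenetic proteins that induce this programme, and form the sympathetic chain and the chromaffin cells. Catecholamine signalling downstream of Gata3 has been linked to the emergence of hematopoietic stem cells in this region.

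Several of these genes varied widely between arrays of the same tissue, Dbh by 7.51-fold among the dorsal arrays alone. The same arrays were high or low for most of them: dorsal 1 and dorsal 2 were high, and dorsal 3 and ventral 1 were low. Over the levels on the 6 arrays, the 4 genes Th, Dbh, Chga and Chgb followed each other most closely, and Ddc and Insm1 followed them less. Ddc had its highest levels in ventral tissue, and Insm1 was not low on dorsal 3. None of the 7 members in the test over all genes was called different between ventral and dorsal tissue. Slc18a1, too weak for that test, was not called in a fit over all named genes. This does not show that the tissues were alike.

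Th, the rate-limiting enzyme of the pathway, had log2 levels of 7.01, 6.96 and 5.09 on dorsal arrays 1 to 3 and of 4.68, 5.87 and 6.33 on ventral arrays 1 to 3. The tissues overlapped, since dorsal 3 lay below both ventral 2 and ventral 3. The dorsal mean was 6.35 ± 1.10 (SD, n = 3) and the ventral mean 5.63 ± 0.85 (SD, n = 3). The log2 fold change, ventral minus dorsal, was −0.72 ± 0.61 (SE; limma, adjusted p = 0.763), with a 95% confidence interval from −2.19 to 0.74.

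Dbh had log2 levels of 9.55, 9.66 and 6.75 on the dorsal arrays and of 5.44, 8.13 and 8.59 on the ventral arrays, in the order of the replicate numbers. Among dorsal arrays alone it spanned 7.51-fold, and among ventral arrays 8.84-fold. Between the tissue means it differed by 2.40-fold, higher in dorsal tissue, with a log2 fold change of −1.27 ± 0.98 (adjusted p = 0.729; 95% interval −3.62 to 1.09). That interval reaches from a far lower to a higher level in ventral tissue, so these arrays do not show that Dbh is alike on both sides.

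Ddc, which also works outside the catecholamine pathway, had log2 levels of 6.32, 6.18 and 5.59 on the dorsal arrays and of 6.18, 7.38 and 7.03 on the ventral arrays. Ventral 2 and ventral 3 lay above every dorsal array, while ventral 1 lay within their range. The log2 fold change was 0.84 ± 0.32 with a 95% interval from 0.063 to 1.61. It was the only member with an unadjusted p under 0.05 (0.0380), and it did not pass over all genes (limma, adjusted p = 0.432). Slc18a1, the vesicular monoamine transporter of chromaffin cells, ranged from 3.56 on ventral 1 to 4.65 on dorsal 1, with tissue means of 4.20 and 4.17. Its mean over the 6 arrays fell below the brightness filter, the median level of all probe sets (4.52), so its difference of −0.030 ± 0.36 (adjusted p = 0.993) comes from the fit without that filter, in which limma called 0.0416% of all 24011 genes.

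The granin Chga had log2 levels of 6.92, 6.39 and 5.65 on the dorsal and of 4.90, 5.59 and 6.27 on the ventral arrays. The granin Chgb had levels of 7.57, 7.88 and 5.75 on the dorsal and of 3.39, 6.95 and 7.36 on the ventral arrays. Both were lowest on ventral 1, where Chgb lay below the filter level, so that folds against that array are those of the deposited values and give no exact ratio of transcript. The log2 fold changes were −0.73 ± 0.46 for Chga (adjusted p = 0.653; 95% interval −1.83 to 0.37) and −1.17 ± 0.95 for Chgb (adjusted p = 0.752; 95% interval −3.46 to 1.13).

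Phox2a, a homeodomain factor that activates Th and Dbh, had log2 levels of 5.94, 5.63 and 4.97 on the dorsal and of 5.07, 5.16 and 5.24 on the ventral arrays. Its ventral arrays lay close together (SD 0.085, n = 3), and within the range of the dorsal ones (SD 0.49, n = 3). Insm1, a zinc-finger factor of neuroendocrine cells, had levels of 5.52, 5.95 and 5.66 on the dorsal and of 4.91, 5.89 and 5.45 on the ventral arrays. Insm1 did not follow the others on dorsal 3, where it lay within the range of dorsal 1 and dorsal 2. The log2 fold changes were −0.36 ± 0.25 for Phox2a (adjusted p = 0.696) and −0.29 ± 0.19 for Insm1 (adjusted p = 0.675).

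**Figure D1:**
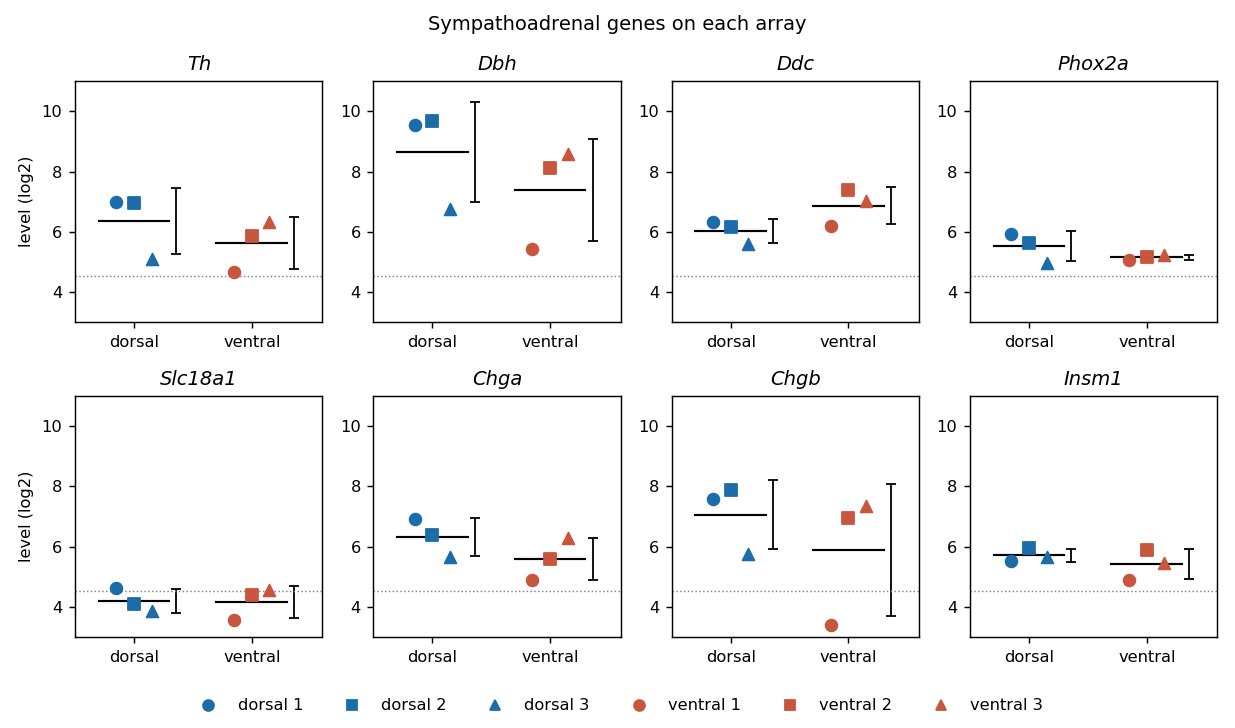
Log2 level (vertical axis) of each of the 8 genes on the 3 dorsal and 3 ventral arrays, with replicate numbers as symbols, the tissue mean as a line, the SD as a bar beside it, and the filter level of 4.52 dotted. The tissues overlap for all 8 genes, and Th, Dbh and Chgb are lowest on ventral 1 and next lowest on dorsal 3.

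Of the 7 members that passed the filter, limma called 0 at an adjusted p of 0.05, where 0.515% of all 12028 genes tested were called (0.491% without the replicate block). Over the 8 members 7 had a negative log2 fold change, with a median of −0.54. Over the 7 members tested 6 did, with a median of −0.72, beside a median of −0.015 and 52.3% negative over all genes tested. The tissues' arrays overlapped for all 8, while they did not overlap for 15.4% of the genes tested. Within a same-numbered pair the direction was not steady: Dbh was lower in ventral tissue by 4.11 and 1.53 on the log2 scale in pairs 1 and 2, and higher by 1.84 in pair 3. Th, Chga and Chgb turned in the same way in pair 3, by 1.25, 0.62 and 1.61. Without replicate 1, the log2 fold changes became 0.076 for Th, 0.15 for Dbh, 0.34 for Chgb and 0.50 for Slc18a1, so their dorsal direction rested on that pair. Without ventral 1 alone, and with no replicate block, those of Th, Dbh and Chgb were −0.25, −0.29 and 0.088.

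The spread within a tissue was wide for some of these genes and not for others. Dbh and Chgb ranged over 4.21 and 4.49 on the log2 scale across the 6 arrays, Th over 2.32, Chga over 2.02 and Ddc over 1.79. Slc18a1, Insm1 and Phox2a ranged over 1.09, 1.04 and 0.97, beside a median range of 0.71 over all genes tested. The pooled SD within tissues was 1.67 for Dbh and 1.74 for Chgb, larger than for 99.8% of the genes tested in each case. It was 0.98 for Th, larger than for 98.8%, and 0.66 for Chga, larger than for 96.0%. For Ddc, Slc18a1, Insm1 and Phox2a it was larger than for 90.9%, 88.4%, 78.7% and 74.6%. For each of the 8 members the larger range within a tissue exceeded the difference between the tissue means, which also held for 92.1% of all genes tested.

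On ventral 1 all 8 members lay below their own mean over the arrays, by 1.23 on average. On dorsal 3, 7 of 8 did, by 0.58 on average, and Insm1 lay 0.095 above. On dorsal 1 and dorsal 2 the averages were 0.69 and 0.60, with 6 of 8 above their mean on each. Of all genes tested, 52.4% lay below their mean on ventral 1 and 49.2% on dorsal 3. The deposited arrays were brought to nearly the same median (4.49 to 4.55), so these shares could not show a shift of a whole array. Dorsal 3 and ventral 1 were the 2 lowest arrays for Th, Dbh, Phox2a, Slc18a1 and Chgb, 5 of the 8 members, and for 6.27% of all genes tested. These 2 arrays were singled out after their values were seen. In pieces of tissue, fewer sympathoadrenal cells in the cut area and less RNA per cell cannot be told apart.

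**Figure D2:**
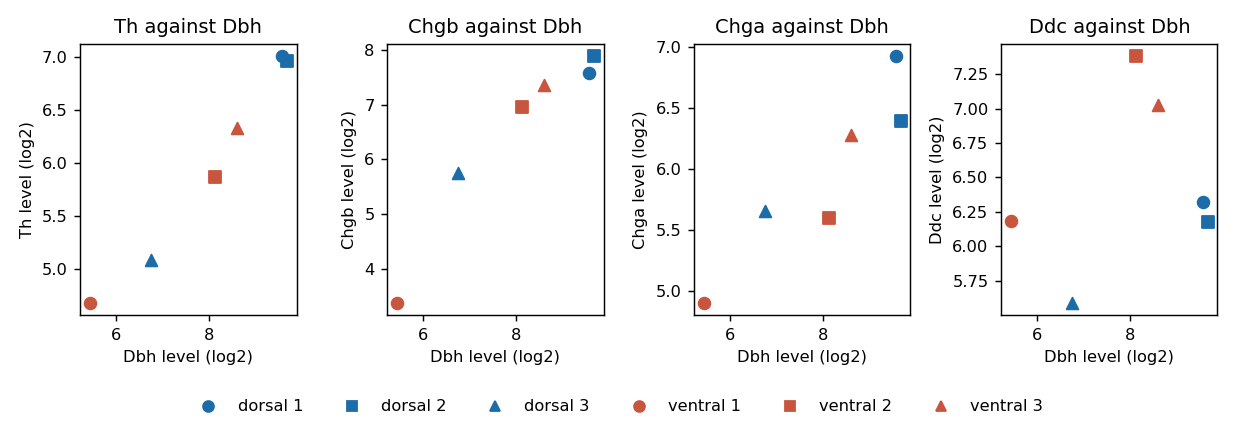
Log2 levels of Th, Chgb, Chga and Ddc (vertical axes) against that of Dbh (horizontal axis), 1 point for each of the 6 arrays. Th and Chgb climb with Dbh over both tissues, while the Ddc points of ventral 2 and ventral 3 lie above those of the dorsal arrays.

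Correlations were taken over the 6 arrays for the 28 pairs of members. All 28 values of Pearson's r were positive, with a median of 0.733, and 12 were 0.8 or more. The closest pairs were Th with Dbh (r = 0.988, Spearman's rho = 0.943, exact permutation p = 0.00556 for r), Dbh with Chgb (r = 0.963, rho = 1, p = 0.00278, the smallest that 6 arrays can give) and Th with Chgb (r = 0.914, rho = 0.943, exact permutation p = 0.00556). After Benjamini-Hochberg adjustment over the 28 pairs none passed 0.05 in these two-sided exact tests: the lowest adjusted p was 0.0519 for r, shared by those 3 pairs, and 0.0778 for rho. Permutation p for rho were 0.0167 for Th with Dbh and with Chgb, and 0.00278 for Dbh with Chgb. The labels take both tissues from the same embryos without saying which arrays share one, so the 6 arrays may not be fully independent.

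The 6 pairs among Th, Dbh, Chga and Chgb had r from 0.871 to 0.988. With each tissue's mean removed they had r from 0.859 to 0.985, so that the likeness lay within the tissues. Without the 2 arrays farthest from the median of the first gene of the pair, which were ventral 1 with dorsal 3 or dorsal 1, r over the remaining 4 arrays was 0.798 to 0.991. For Slc18a1 the relation rested on the arrays left out: its r of 0.789 with Th and 0.811 with Dbh became −0.0885 and −0.210. Phox2a had r of 0.872 with Th and 0.808 with Dbh, and 0.914 and 0.902 over the 4 arrays. Its r with Th was about that of Chga with Chgb (0.871). With tissue means removed the 4 genes were not set apart, since 15 of the 28 pairs had r of 0.8 or more. Among those were Slc18a1 with Chga (0.942) and Ddc with Chgb (0.930), while Phox2a with Insm1 had 0.050.

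Ddc correlated weakly with the closest genes over the 6 levels. Its r was 0.259 with Th, 0.291 with Dbh, 0.341 with Chgb and 0.061 with Chga. With tissue means removed the same pairs had r of 0.852, 0.915, 0.930 and 0.779. Within each tissue Ddc was lowest on the same array as Dbh, dorsal 3 or ventral 1. Without dorsal 3 and ventral 1, r of Ddc with Dbh turned to −0.999 over 4 arrays, 2 of each tissue. Insm1 had r of 0.788 with Chgb, 0.678 with Dbh, 0.565 with Th and 0.471 with Chga. With tissue means removed it was less like Th and Chga (0.473 and 0.310) than Ddc was (0.852 and 0.779). Its r with Chgb and Dbh was 0.0363 and 0.0013 without dorsal 3 and ventral 1.

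**Figure D3:**
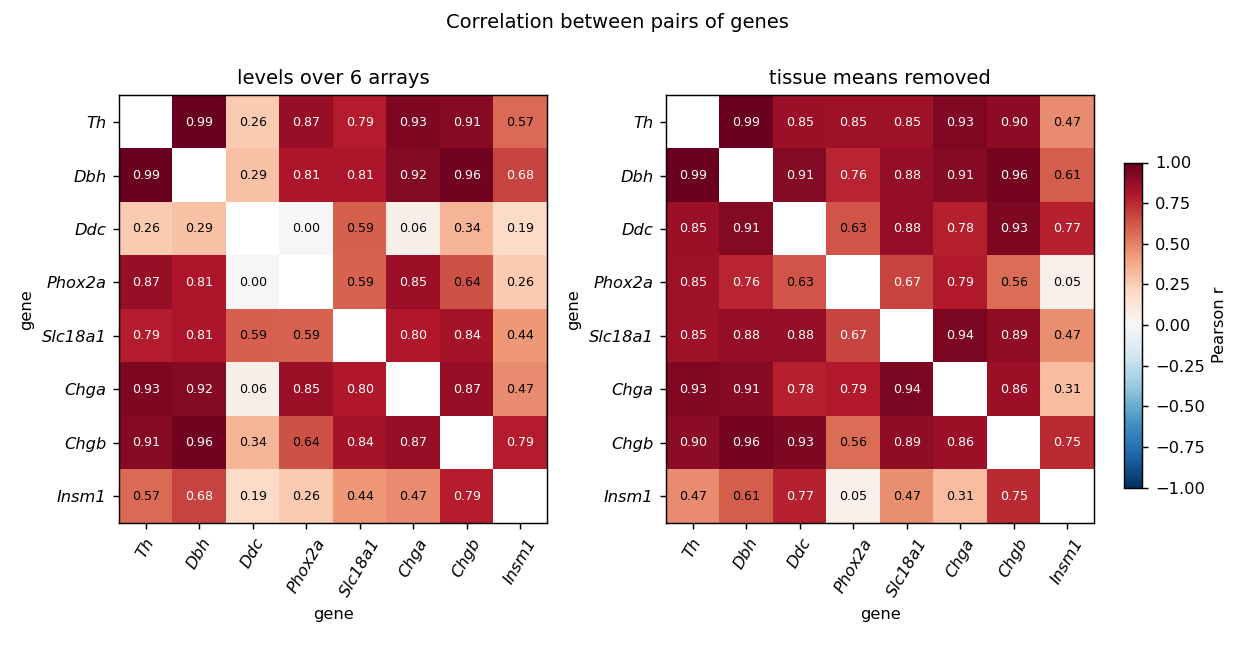
Pearson r for each pair of the 8 genes, on levels over the 6 arrays (left) and after removing the mean of each tissue (right), with colour from −1 to 1. The row of Ddc is pale on the left, with 0.291 against Dbh, and dark on the right, with 0.915.

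The members' likeness was set beside that of all genes. With Dbh, 5 of the 7 other members had r of 0.8 or more, as did 3.33% of the 12027 other genes tested, and 3 of 7 had r of 0.9 or more, as did 1.02%. The 5 with Dbh include Slc18a1, which was below the filter and so not among the genes tested. With Th, 4 of 7 reached 0.8, as did 3.08% of genes. Of the 7 other members 5 reached 0.8 with Chga, 4 with Chgb, 3 each with Phox2a and Slc18a1, and 0 with Ddc or Insm1. For these 6 members 2.95% to 3.97% of genes did. Dbh was the third closest of all tested genes to Th, and Th the 6th closest to Dbh. By the naming rule the 5 closest to Dbh were Kcnk9, a two-pore potassium channel (r = 0.997), Pink1, a mitochondrial kinase (0.994), Tnrc6a, a partner of Argonaute proteins (0.994), Cnot4, of the CCR4-NOT complex (0.994), and Ugdh, which makes a sugar precursor of matrix polymers (0.992). The closest to Th were Tnrc6a (0.996), Kcnk9 (0.990), Dbh, the replication factor Mcm10 (0.988) and Cmc1 (0.983). These values are a description over 6 arrays and carry no p. Kcnk9 was the one of them that also ranged widely, with log2 levels of 5.81, 5.81 and 4.39 on the dorsal and of 3.82, 5.06 and 5.18 on the ventral arrays. Cnot4 and Mcm10 ranged over 0.29 and 0.27.

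The promoters of the 4 genes that varied together are shown, since Th and the granins are textbook genes of the cAMP response element and Th and Dbh are targets of homeodomain factors. RefSeq sequences of mouse build GRCm38.p6 matched 6 of the 8 members, with 2 promoters for Ddc. Each runs 5′ to 3′ on the strand of the gene, from 250 bases before the start of transcription to 50 after it. Capitals mark TGACG, the core of the cAMP response element, and ATTA, the core of homeodomain sites, on either strand. The Th promoter is chr7:142899946-142900245 on the minus strand, Dbh chr2:27165257-27165556 on the plus strand, Chga chr12:102554691-102554990 on the plus strand and Chgb chr2:132781392-132781691 on the plus strand.
Th: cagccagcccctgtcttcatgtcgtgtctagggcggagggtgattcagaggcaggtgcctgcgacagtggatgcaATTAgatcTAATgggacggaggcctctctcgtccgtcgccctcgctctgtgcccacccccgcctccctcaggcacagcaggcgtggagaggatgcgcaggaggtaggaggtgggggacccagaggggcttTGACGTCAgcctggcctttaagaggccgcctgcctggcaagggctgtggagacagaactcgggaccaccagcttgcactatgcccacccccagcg
Dbh: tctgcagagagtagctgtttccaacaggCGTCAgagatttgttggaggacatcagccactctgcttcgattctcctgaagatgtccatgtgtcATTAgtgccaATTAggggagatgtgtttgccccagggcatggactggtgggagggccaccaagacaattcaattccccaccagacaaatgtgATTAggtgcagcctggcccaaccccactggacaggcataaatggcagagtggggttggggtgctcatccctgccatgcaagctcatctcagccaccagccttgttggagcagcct
Chga: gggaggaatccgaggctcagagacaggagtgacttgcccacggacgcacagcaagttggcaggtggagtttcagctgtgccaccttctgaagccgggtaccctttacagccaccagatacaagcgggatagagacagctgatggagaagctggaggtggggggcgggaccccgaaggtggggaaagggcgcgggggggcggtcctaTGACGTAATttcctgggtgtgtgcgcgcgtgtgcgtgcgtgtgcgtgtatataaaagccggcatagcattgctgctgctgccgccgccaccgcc
Chgb: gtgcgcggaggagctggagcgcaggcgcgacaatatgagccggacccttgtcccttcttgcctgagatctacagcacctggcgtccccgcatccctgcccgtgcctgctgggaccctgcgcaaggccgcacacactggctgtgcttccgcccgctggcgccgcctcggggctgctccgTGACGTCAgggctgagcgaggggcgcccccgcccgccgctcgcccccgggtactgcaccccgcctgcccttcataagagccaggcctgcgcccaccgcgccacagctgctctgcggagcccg

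The whole response element TGACGTCA, made of 2 overlapping TGACG cores on opposite strands, began 45 bases before the start in Th and 72 bases before it in Chgb. It lay in 1.79% of all 32851 promoters of the same length. Chga held 1 TGACG core, beginning 44 bases before its start and followed directly by its ATTA match on the other strand, and Dbh 1 at 222 bases, on the other strand. TGACG lay in 20.8% of all promoters. The homeodomain core occurred 3 times in Dbh, 2 times in Th, 1 time in Chga and 0 times in Chgb, and in 58.0% of all promoters. The letters of the TATA box, TATAAA, were counted on both strands. They lay in Chga and in 1 of the 2 promoters of Ddc, beside 13.6% of all promoters. In Chga the match began after the start of transcription, and in Ddc 68 bases before it, on the other strand. Of the 7 member promoters 4 held TGACG, those of Th, Dbh, Chga and Chgb. That of Phox2a held none of these letters in this window. A match of letters is a description and does not show that a factor binds there.

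The wider catecholamine route had 14 named genes of 15 listed, members included. None of the 10 tested passed, beside 0.515% of all genes tested. Of the 14, 12 had a negative log2 fold change, beside 52.3% of all genes tested. The 12 include Slc18a1, Pnmt, Slc6a2 and Gch1, which were below the filter, while that share is over genes that passed it. Among the 12 negative genes, Th, Dbh and Slc18a1 turned sign without replicate 1. Cyb561, which supplies electrons for Dbh inside the vesicle, followed Dbh with r of 0.907, and had log2 levels of 7.51, 7.12 and 5.84 on the dorsal and of 5.51, 6.46 and 6.13 on the ventral arrays. Slc18a2, the neuronal vesicular monoamine transporter, had r of 0.804 with Dbh and a dorsal mean of 6.13 ± 0.69 (SD, n = 3) beside a ventral one of 5.31 ± 0.13 (SD, n = 3). Its difference was −0.82 ± 0.30 (adjusted p = 0.390). Gch1, which starts the synthesis of the Th cofactor tetrahydrobiopterin, was below the filter with r of 0.889. Its levels were 5.13, 5.08 and 3.38 on the dorsal and 3.00, 3.99 and 3.54 on the ventral arrays, a difference of −1.02 ± 0.43 (adjusted p = 0.629 in the fit without the filter). The later cofactor enzymes Pts, Spr and Qdpr had differences of −0.38 ± 0.17, 0.43 ± 0.23 and −0.062 ± 0.19, with adjusted p of 0.598 for Spr. Spr ranged over 1.10, was lowest on dorsal 1 and had r of −0.516 with Dbh. Pnmt, which makes adrenaline, and the noradrenaline transporter Slc6a2 stayed below the filter level on all 6 arrays, at 3.17 to 3.61 and 3.18 to 3.78.

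Among 13 transcription factors of the lineage none of the 11 tested passed, with 8 of 13 negative, beside 52.3% of all genes tested. The 13 include Gata2 and Hmx1, which were below the filter. Hand2, a basic helix-loop-helix factor of sympathetic neurons, was at 5.94 to 6.67 on dorsal and 6.71 to 7.42 on ventral arrays, which did not overlap (0.73 ± 0.26, adjusted p = 0.377). Gata3, required for Th expression in sympathetic cells, differed by 0.16 ± 0.26 (adjusted p = 0.893). Isl1, a LIM homeodomain factor, stood at 8.18 and 8.44 on ventral 2 and ventral 3 and between 5.07 and 6.60 on the other arrays (1.501 ± 0.64, adjusted p = 0.474). Tfap2b had the largest difference of the list, at −1.58 ± 0.32 (adjusted p = 0.136).

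Of 16 listed dense-core granule genes 15 were named and 8 tested, none of which passed. The granin Scg3 differed by −1.297 ± 0.23 (adjusted p = 0.1004) and the vesicle calcium sensor Syt1 by 1.25 ± 0.39 (adjusted p = 0.311). Among receptors and signals of sympathetic development, 16 of 19 were named and 12 tested. Ret, the receptor kinase of early sympathetic cells, was the tested list gene closest to Dbh outside the members (r = 0.949), with levels of 4.86, 5.24 and 4.07 on the dorsal and of 3.996, 4.67 and 4.88 on the ventral arrays. Its tissue difference was −0.21 ± 0.33 (adjusted p = 0.891). Ntrk3, the neurotrophin-3 receptor, was the only gene of all 13 lists to pass, higher in ventral tissue by 2.44 ± 0.25 (adjusted p = 0.0258). It did not pass without the brightness filter (0.0984), nor without dorsal 1 when the replicate block was left out too. Of the 34 tested genes of these 4 lists that are no members, 3 had r of 0.8 or more with Dbh, namely Cyb561, Slc18a2 and Ret. That is 8.82%, beside 3.33% of all genes. Over the 6 levels, r with Dbh was 0.257 for Hand2, 0.775 for Hand1, 0.431 for Isl1 and 0.409 for Pam. With tissue means removed, r with Dbh was 0.968 for Hand2, 0.937 for Hand1, 0.920 for Isl1 and 0.817 for Pam. In that form Ret and Cyb561 had 0.965 and 0.895, and Slc18a2 had 0.793. Other genes of these lists were negative in it, such as Sox11 (−0.870) and Cpe (−0.642). High values in it were not limited to these lists: the neuron genes Nefm and Nefl had 0.885 and 0.875, while the neural tube gene Sox2 had −0.778. The share of all genes was not computed in that form.

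**Figure D4:**
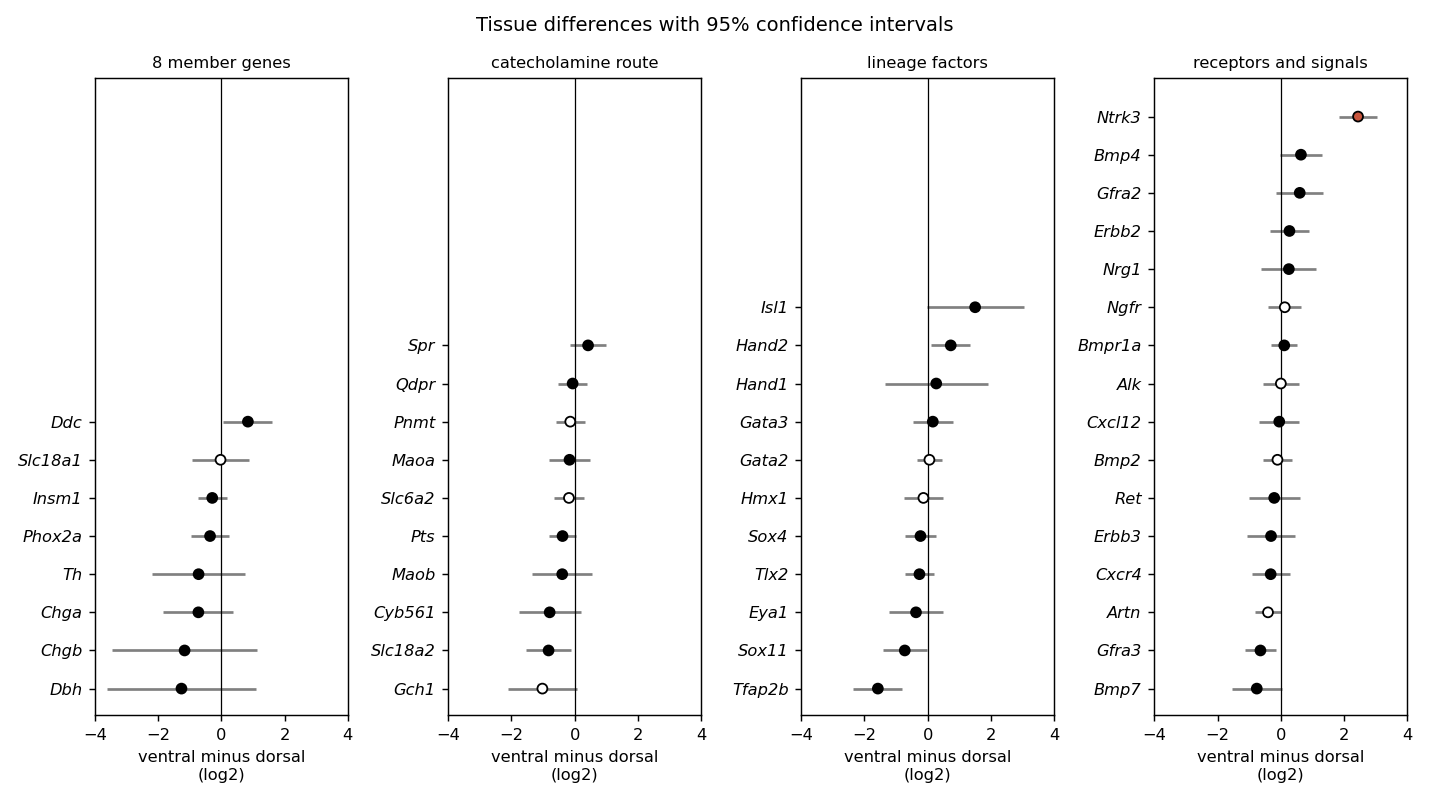
Ventral minus dorsal difference (log2, horizontal axis) with its 95% confidence interval for the 8 genes and for 3 lists of related genes without those 8. Open points are genes below the brightness filter, and the red point is Ntrk3 at 2.44, the only gene shown that passed.

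Markers of other cells that the cut tissue could hold were compared on the same arrays. The mean level of 12 neuron genes was 6.48 to 6.73 on dorsal and 5.78 to 6.49 on ventral arrays. That mean was lowest on ventral 1, as most of the catecholamine genes were, but stood at 6.62 on dorsal 3. It hides a split: Prph, Nefl, Nefm, Gap43 and Snap25 had their lowest dorsal level on dorsal 3. Tubb3, Stmn2, Elavl3, Elavl4, Dcx, Rtn1 and Ina had their highest dorsal level there. Snap25, a synaptic vesicle fusion protein, was the 1 of the 28 tested marker genes with r of 0.8 or more to Dbh (0.833). That is 3.57%, close to the 3.33% of all genes tested. Prph, below the filter, had r of 0.813. Neural crest and Schwann precursor genes, 7 named of 9, averaged 4.89 to 5.84 on dorsal and 4.97 to 5.11 on ventral arrays, with Sox10 at 4.05 to 5.02 over all arrays. Genes of the neural tube, 10 named of 10, averaged 4.79 on dorsal 3 and 3.51 to 3.90 elsewhere, with Sox2 at 9.69 on dorsal 3 and 4.59 to 6.50 on the others. Gut, pancreas and liver genes, 13 named of 14, averaged 5.23 on dorsal 3, 5.43 on ventral 3 and 4.28 to 4.58 elsewhere, and this rise lay in the liver genes Afp (10.99 and 11.63 on those 2 arrays) and Alb (7.44 and 7.21). The other 11 averaged 4.50 on dorsal 3 and 4.70 on ventral 3, beside 4.37 to 4.60 elsewhere, a split chosen after the values were seen. The part of these other cells in the levels of the catecholamine genes was not tested. Ventral 1, the lowest array for most members, stood at 3.78 for the neural tube and 4.44 for the whole gut list, within the range of the other arrays.

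**Figure D5:**
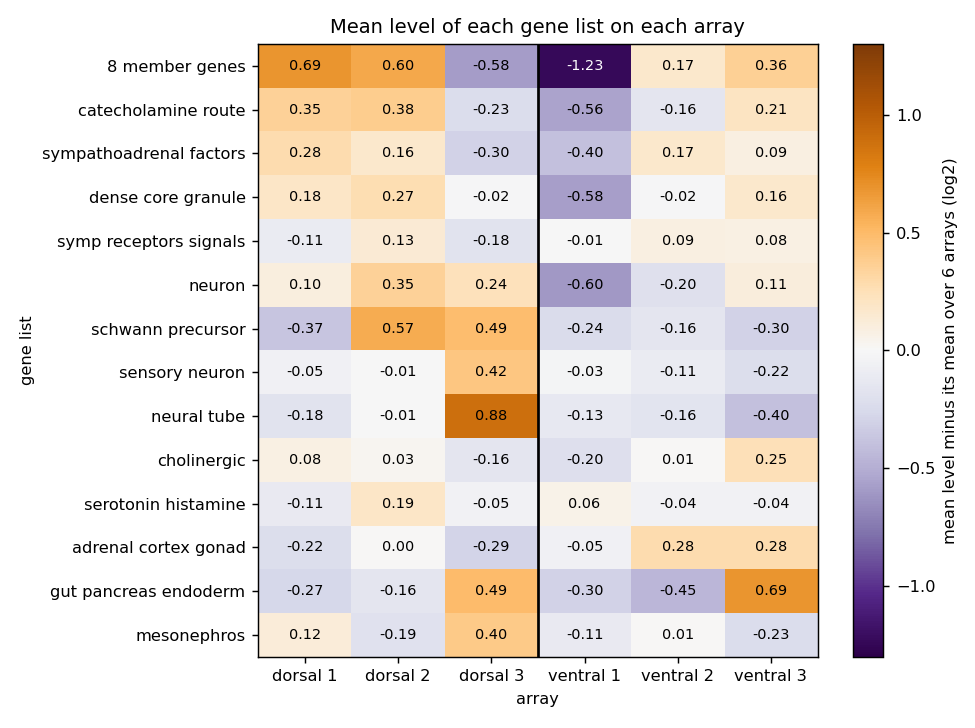
Mean level of the 8 genes and of each of 13 gene lists on each array (columns), minus its mean over the 6 arrays (log2, colour and number); the first 3 lists hold members too. The 8 genes stand at −1.23 on ventral 1 and −0.58 on dorsal 3, while the neural tube list stands at 0.88 on dorsal 3 and the gut list at 0.69 on ventral 3.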

How the data were processed

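Total RNA of 200 to 1000 pg from laser-cut sections of 20 μm was amplified by the NuGEN Ovation Pico method, biotin labelled and hybridised to arrays, per the labels' protocols. Amplification of so little RNA can distort ratios of weak to strong transcripts. The deposited values are log2 levels per probe set, made with Affymetrix Expression Console and RMA per the submitters' processing notes. Their versions and the genome build are not given here. Array medians were 4.49 to 4.55, and r between arrays over probe sets was 0.956 to 0.976. Of 24973 probe sets 24015 had 1 symbol, 0 had several and 958 are unnamed here; the brighter of repeated symbols was kept.

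Ventral minus dorsal was tested two-sided with lmFit and eBayes of limma 3.58.1 (R 4.3.3), with a fixed block for the replicate number. The p-values were adjusted by Benjamini-Hochberg over the 12028 genes with a mean at or above the median (4.52). Errors of differences are moderated standard errors on 6.41 degrees of freedom. The block was used because the labels take both tissues from the same embryos. They do not state that a number marks an embryo, and same-numbered arrays deviated from their tissue means with r of 0.0992, 0.0763 and 0.226 (numbers 1 to 3), weak support for the pairing. Correlations used exact permutation over 720 pairings (numpy 2.4.6). Both procedures were tested on simulated data.

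Members and lists were chosen with earlier results of these data known. The rule named all members, every list gene that passed, list genes with large differences, and the 5 genes closest to Th and Dbh. Precision is limited by the number of arrays. Alternatives covered block, filter, normalization, trend and left-out arrays.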

Additional observations from a re-analysis of the deposited data

How the results depend on the processing

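No member passed under any of the 16 alternatives run to the fit of the tissues. Counts over all genes moved from 62 to 10 without the brightness filter and to 94 with an intensity trend. They were 48 to 75 with a replicate number left out. With no replicate block they were 12, 23 and 40 without dorsal 1, 2 and 3, and 104, 13 and 18 without ventral 1, 2 and 3. With no replicate block 59 genes passed, and that fit changed no call of a member or list gene. The 1 call among list genes, Ntrk3, became 0 without the filter, and was 0 to 1 with a number or array left out (0 without dorsal replicate 1 and no block). Signs turned without replicate 1 for Th, Dbh, Slc18a1 and Chgb. With each replicate number left out, log2 fold changes ran from −1.71 to 0.076 for Th, −2.82 to 0.15 for Dbh, −0.40 to 0.50 for Slc18a1 and −2.56 to 0.34 for Chgb. With no replicate block, signs turned for Slc18a1 without dorsal 1 (0.19) or ventral 1 (0.28), and for Chgb without ventral 1 (0.088). Ddc, Phox2a, Chga and Insm1 kept their signs, with adjusted p of 0.0845 to 0.987 over these 4 genes and all alternatives. The number of member pairs with a positive correlation was 28 of 28 as reported and 24 to 28 with Spearman’s rho, tissue means removed, cyclic loess or a replicate number left out. It was 20 without the 2 arrays farthest from the median, with a median r of 0.396. The number of arrays limits the precision.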

Other observations

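Genes of other transmitter and hormone systems were at low levels, with single arrays standing out. Choline-system genes were below the brightness filter as means, and Slc5a7, the choline transporter of cholinergic neurons, was at 4.41 and 5.58 on ventral 2 and ventral 3 and at 3.54 to 3.63 on the other 4 arrays. Genes of serotonin and histamine synthesis and uptake, 4 named of 5, stayed between 2.74 and 3.84 on all arrays. Nr5a1, the factor that defines adrenal cortex and gonad, was at 3.63 to 4.14. Nr0b1, a nuclear receptor of the same tissues, was at 5.66 on ventral 3 and 2.75 to 3.95 elsewhere, and Mc2r, the corticotropin receptor, at 5.44 on dorsal 2 and 6.04 on ventral 2 beside 3.48 to 4.50 elsewhere. Maob, a monoamine oxidase that breaks down catecholamines, was at 6.24 and 7.03 on dorsal 3 and ventral 3 and at 3.09 to 4.83 on the other arrays.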
